A study of Mus musculus with 46 samples.

Results

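Growth of MC-38 tumors without PD-1 blockade was followed by comparing isotype control tumors taken at day 15 post-tumor implant with isotype control tumors taken at day 11. The 10 tumors compared were chosen by their sample labels, 5 labelled as 8 day after 2 doses and 5 labelled as 4 day after 1 dose, out of 46 samples in the study. All 10 came from wild-type (WT) female C57BL/6NTac mice of 8 to 10 weeks that had received MC-38 cells, a transplantable mouse colon carcinoma line, under the skin of the right flank. The mice were randomized at day 7 and given isotype antibody, which does not bind PD-1, on the schedule of the PD-1 antibody (PD-1 Ab, clone muDX400, 5 mg/kg every 4 days). The isotype dose is not given in the labels. Each sample is total RNA of a whole tumor piece, so it mixes carcinoma cells with blood, vessels, stroma and infiltrating leukocytes. A figure legend of the study presents the bulk tumor profiles animal by animal, that is, as separate mice. Another 10 tumors, from PD-1 Ab-treated mice of the same days, were used to compare the change with time.

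MC-38 tumors are immunogenic, and in the interval studied they enlarge in mice that receive no checkpoint blockade. Interleukin-1, made mainly by monocytes, macrophages and neutrophils, is an alarm cytokine that recruits further myeloid cells, while interferon-gamma from T and NK cells induces chemokines, guanylate-binding proteins and the PD-1 ligand PD-L1. Cells in a tumor that outgrows its supply of amino acids, glucose and oxygen activate the integrated stress response, in which the transcription factors ATF4 and CHOP switch on genes of amino acid supply, redox balance and cell death.

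Expression was given as FPKM (sequenced fragments per gene, corrected for how long its transcripts are and for the size of the library) for 48795 Ensembl genes, and values below are scaled FPKM, that is FPKM divided by a factor per tumor that sets the typical gene level. The library of day 11 replicate 1 stood apart: 54.6% of its FPKM came from mitochondrial genes, against 2.997 to 4.31% in the other 9, it had 15880 genes above 0 against 19341 to 20363, and its scaling factor was 0.418 against 1.07 to 1.13. Its correlations with the other tumors of its group were 0.851 to 0.889. The numbers of genes called are therefore given for all 10 tumors and for 9 tumors, without that library. Isotype differences of single genes and counts of list members are for 10 tumors unless 9 are named. The mitochondrial share did not differ between days beyond the spread (mean difference -10.5 percentage points, 2-sided exact permutation p = 0.119 for 10 tumors; -0.335 points, p = 0.238 for 9). The sum of FPKM was 496607 ± 45443 (SD, n = 5) at day 15 and 446420 ± 6345 (n = 4) at day 11 without replicate 1, with an exact permutation p of 0.0317, against p = 1 for all 10 tumors (difference -24130). The identifiers of the day 15 tumors form a run of their own and do not interleave with those of day 11, so the day and whatever goes with the identifiers cannot be told apart. FPKM does not keep the number of reads, so no interval for counting error could be given.

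Marker lists were summed to describe the labelled tissue. The MC-38 list (keratins and mesenchymal genes) had summed levels of 1319 to 1536 scaled FPKM at day 11 and 1230 to 1642 at day 15, and the T cell list 12.6 to 45.9 and 18.9 to 38.02. Krt8, Krt18 and Epcam define an epithelial cell, and Krt8, which shares 26.9% of its 50-base words with another gene, was at 0 in 3 of the 5 tumors of day 11. In cultured MC-38 cells Krt8 (mean 0.253) and Krt18 (0.102) were low as well, so the line itself carried little of these keratins. The MC-38 list summed to 885 to 975 scaled FPKM in culture, mostly from other members. Its sum alone therefore does not show epithelial identity.

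No gene passed an adjusted p under 0.05 between day 15 and day 11 in all 10 tumors (0 of 14433 genes tested, 0%, limma with Benjamini-Hochberg adjustment, smallest adjusted p 0.155). At an unadjusted p under 0.05, 1112 genes (7.7%) were higher and 1155 (8%) lower at day 15. Without day 11 replicate 1, limma called 9 of 14305 genes (0.0629%), 6 higher (0.0419%) and 3 lower (0.021%) at day 15, all at an adjusted p of 0.0481, with 1388 genes (9.7%) higher and 1102 (7.7%) lower at an unadjusted p under 0.05. The genes called were the cytokine genes Il1b and Il1a, Pdap1, and 6 genes or pseudogenes that share sequence with other genes. With the limits used in the study (adjusted p under 0.01 and 2-fold) no gene was called in either set. The groups did not overlap for 270 genes that were higher in all 5 tumors of day 15 (1.87% of those tested) and 204 that were lower (1.41%) among 10 tumors, and for 564 (3.94%) and 386 (2.7%) among 9.

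Interleukin-1 genes were lower in the later tumors. Il1b (ENSMUSG00000027398, chr2:129364570-129371139, minus strand, GRCm38) encodes IL-1 beta. Its promoter, the 250 bases before the RefSeq start (GRCm38.p6, chr2:129371140-129371389, minus strand), is shown because limma called this gene without day 11 replicate 1. Capitals mark TATAAA, the TATA box letters, 31 to 26 bases before the start.
Il1b: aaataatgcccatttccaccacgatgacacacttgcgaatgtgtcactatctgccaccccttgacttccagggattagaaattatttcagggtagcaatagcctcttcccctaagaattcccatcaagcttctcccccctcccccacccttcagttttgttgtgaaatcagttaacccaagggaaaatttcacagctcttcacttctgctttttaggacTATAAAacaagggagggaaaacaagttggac
TATAAA, searched on both strands, was present in 5 of the 12 inflammatory cytokine genes that have a window (Ccl12, Cxcl3, Il1a, Il1b and Tnf) and in 12.4% of all 32851 promoter windows. Here and below, a list gene was counted if any of its windows matched, while the share over all is of single windows. Such a match is a description of the letters and not of factor binding.

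Il1b was at 99.5, 75.6, 56.6, 75.4 and 54.6 scaled FPKM in day 11 replicates 1 to 5, and at 16.1, 21.2, 29.4, 30.3 and 29.4 in day 15 replicates 1 to 5. Every tumor of day 15 lay below every tumor of day 11, and the means were 25.3 ± 6.33 (SD, n = 5) and 72.4 ± 18.2 (n = 5). On the log2(scaled FPKM + 0.1) scale the difference was -1.52 (SE 0.21, limma adjusted p = 0.155) in 10 tumors and -1.40 (SE 0.20, adjusted p = 0.0481) in 9, in which Il1b fell. Il1a, which encodes IL-1 alpha and lies beside Il1b (chr2:129299610-129309972, ENSMUSG00000027399), was at 7.13, 4.11, 3.01, 3.18 and 5.40 at day 11 and at 1.16, 1.61, 1.18, 0.761 and 1.19 at day 15, again without overlap. It differed by -1.82 (SE 0.27, limma adjusted p = 0.155) in 10 tumors, and in 9 it fell by 1.65 (SE 0.23, adjusted p = 0.0481). These 2 calls depended on the setting. Among 13 other settings of the 9-tumor comparison Il1b was called in 7 (limma adjusted p from 0.00783 to 0.305) and Il1a in 5 (0.0088 to 0.305), and with a further tumor left out in turn, 9 times, in 1 and 2. Tumors labelled baseline had 9.55 scaled FPKM of Il1b (mean, n = 3), and cultured MC-38 cells are listed at 0. The labels give no treatment or day for the baseline tumors, and their identifiers form a further run. In a bulk tumor, fewer cells of a type and less RNA per cell cannot be told apart.

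Other genes of the same response were lower on average and did not pass the adjusted threshold. Il1rn, the natural antagonist of the IL-1 receptor, was at 14.8, 11.9, 12.96, 13.2 and 10.7 at day 11 and at 6.02, 6.07, 9.82, 6.46 and 8.31 at day 15. Its groups did not overlap, and the log2 difference was -0.80 (SE 0.16, limma adjusted p = 0.318). Acod1, which makes the macrophage metabolite itaconate, had 2.75 to 4.01 at day 11 and 0.845 to 2.02 at day 15 (log2 difference -1.13), and Ptgs2, the inducible prostaglandin synthase COX-2, had 5.89 to 12.7 and 4.01 to 5.79 (-0.88). Neither gene overlapped between days. The chemokine genes Ccl3 (-0.89) and Ccl4 (-0.87) overlapped, and both were highest in day 11 replicate 1, at 16.4 and 20.03 scaled FPKM. Over the whole list of inflammatory cytokines and chemokines, 4 of 15 tested members were lower and none higher at an unadjusted p under 0.05, beside 8% of all genes lower, and the median log2 difference was -0.43 against 0.0151 over all genes tested. Without day 11 replicate 1 the counts were 3 lower and none higher, beside 7.7% of all genes lower, with a list median of -0.32.

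**Figure D1:**
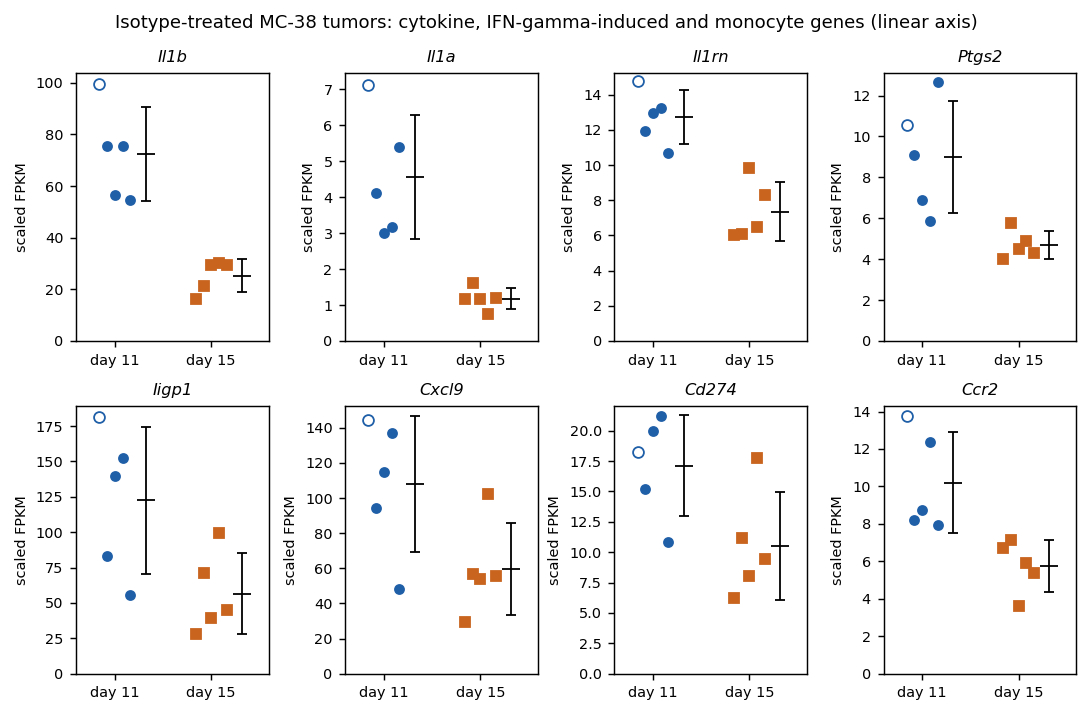
Scaled FPKM (linear axis from 0) of 8 genes of inflammation, interferon response and myeloid cells in each isotype control tumor, with open circles for day 11 replicate 1, filled circles for the other day 11 tumors, squares for day 15, and a dash and bar for the mean and SD of each group of 5. All 5 day 15 values of Il1b (16.1 to 30.3) lie below all day 11 values (54.6 to 99.5), while Cxcl9, Iigp1 and Cd274 overlap between days.

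Most interferon-gamma-induced genes were lower on average at day 15 (17 of 22 in 10 tumors, with 5 higher), with overlap. Iigp1, an immunity-related GTPase, was at 181, 83.2, 139, 152 and 55.6 at day 11 and at 27.8, 71.5, 39.3, 99.4 and 44.8 at day 15. Day 15 replicate 4 lay above day 11 replicates 2 and 5, and day 15 replicate 2 above day 11 replicate 5. The log2 difference was -1.13 (SE 0.38, limma adjusted p = 0.318), or -0.96 without day 11 replicate 1. Cxcl9, a chemokine that attracts CXCR3-bearing T cells, had 48.2 to 145 and 29.7 to 102 (-0.86), and Gbp4 (-1.10) and Gbp7 (-1.07), guanylate-binding proteins, had similar differences. Gbp6 (-0.87) shares 70.7% of its 50-base words with other genes, so its reads could be split. Cd274, which encodes PD-L1, had a mean of 17.1 ± 4.16 at day 11 and 10.5 ± 4.44 at day 15 (n = 5 each), a log2 difference of -0.75 (limma adjusted p = 0.318). Of the 22 genes on the interferon-gamma list, 8 were lower and none higher at an unadjusted p under 0.05 in 10 tumors and 4 and none in 9, beside 8% and 7.7% of all genes lower. With FPKM as deposited 1 was lower and none higher, beside 81 of all 14445 genes lower, and the median of all tested genes was itself 0.291. The list's median log2 difference was -0.56 in 10 tumors and -0.48 in 9. Among 20 type I interferon-induced genes 3 were lower and none higher in 10 tumors, beside the same 8% of all genes, and 2 in 9. The RNA sensor gene Ifih1 (-0.67) and Ifit2 (-0.71) were among the 3.

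PD-1 itself showed no difference that the data could resolve. Pdcd1 was at 3.73, 1.33, 3.17, 3.01 and 0.547 scaled FPKM at day 11 and at 1.15, 1.26, 2.19, 2.97 and 1.73 at day 15. The groups overlapped throughout, and the log2 difference was -0.15 (SE 0.47, limma adjusted p = 0.871) in 10 tumors and 0.08 (SE 0.47, adjusted p = 0.928) in 9, so its sign turned with day 11 replicate 1. Cd8a, a coreceptor chain of cytotoxic T cells, had 0.866 to 6.16 at day 11 and 1.58 to 3.91 at day 15 (-0.14, SE 0.49), and with FPKM as deposited its difference was 0.13, as was that of Pdcd1. Among 15 T cell receptor and coreceptor genes none passed an unadjusted p under 0.05 other than Cd247 (-0.75), which was lower, beside 8% of all genes. The same gene had 5.90 scaled FPKM in cultured MC-38 cells, more than in the tumors of day 15 (2.75 ± 0.648, n = 5), so it did not mark T cells alone here. Of 13 cytotoxic effector genes, 3 were lower at an unadjusted p under 0.05, beside 8% of all genes. Gzmb, granzyme B, was at 8.50, 10.2, 10.9, 10.9 and 3.52 at day 11 and at 1.67, 4.22, 4.32, 6.23 and 5.62 at day 15, with replicate 5 of day 11 inside the range of day 15 (log2 difference -0.995, limma adjusted p = 0.318). Gzmc (-1.44) and the chemokine gene Xcl1 (-1.14) were the others, and the NK receptor gene Klrb1c differed by -1.05. None of the 12 genes of MHC class I and II presentation passed an unadjusted p under 0.05 in either set.

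The shares of macrophage genes past the threshold were near those of all genes. The summed level of the 22 genes on the macrophage list had a median of 1615 scaled FPKM at day 11 and 2128 at day 15, with overlap, and 2 were higher and 1 lower at an unadjusted p under 0.05, where 7.7% and 8% of all genes were. Apoe, a lipid carrier of lipid-handling macrophages, was at 137, 450, 342, 404 and 255 at day 11 and at 448, 483, 499, 588 and 673 at day 15 (log2 difference 0.86, limma adjusted p = 0.318). Day 11 replicate 1 was the lowest, and without it the difference was 0.59. Trem2, a receptor of such macrophages, differed by 0.49. Msr1, a scavenger receptor, was lower (-0.77), with 41.9 scaled FPKM in day 11 replicate 1, 19.3 to 20.3 in the others of that day and 9.88 to 17.4 at day 15. Adgre1, which encodes the F4/80 antigen, was alike in range, 18.1 to 26.8 and 16.6 to 24.3 (-0.09, SE 0.14). Among 9 monocyte genes 2 were lower at an unadjusted p under 0.05, beside 8% of all genes. Ccr2, the receptor that draws monocytes from blood, was at 13.8, 8.20, 8.72, 12.4 and 7.94 at day 11 and at 6.70, 7.14, 3.64, 5.90 and 5.37 at day 15, without overlap (-0.82, SE 0.22, limma adjusted p = 0.318). Cybb, a subunit of the phagocyte oxidase, did not overlap between days either (28.0 to 36.6 and 15.3 to 26.3, log2 difference -0.66). For B and plasma cells the levels were low at both days. Cd79a, a B cell receptor chain, had 0 to 0.26 scaled FPKM at day 11 and 0.364 to 1.47 at day 15, and Jchain, the joining chain of secreted antibodies, 0 to 0.326 and 0.317 to 1.87. Of the 5 genes tested on that list 3 were higher in 10 tumors and 2 in 9 at an unadjusted p under 0.05, beside 7.7% and 9.7% of all genes.

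Most genes of the integrated stress response were higher on average at day 15 (13 of 15 in 10 tumors, with 2 lower). The promoters of Chac1 (chr2:119350992-119351241, plus strand) and Herpud1 (chr8:94386179-94386428, plus strand), from RefSeq, GRCm38.p6, are shown because both genes were higher in all 5 tumors of day 15 than in all 5 of day 11 and both carry the letters TGATGNAA, the core of the element that ATF4 and C/EBP factors share. Capitals mark the match, which reads TTGCATCA on the printed strand, 193 to 186 bases before the start of Chac1 and 112 to 105 before that of Herpud1.
Chac1: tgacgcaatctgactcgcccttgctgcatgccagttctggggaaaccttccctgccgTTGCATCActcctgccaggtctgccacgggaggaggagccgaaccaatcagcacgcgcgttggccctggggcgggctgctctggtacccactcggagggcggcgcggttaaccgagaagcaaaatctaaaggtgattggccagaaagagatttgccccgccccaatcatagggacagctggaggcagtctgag
Herpud1: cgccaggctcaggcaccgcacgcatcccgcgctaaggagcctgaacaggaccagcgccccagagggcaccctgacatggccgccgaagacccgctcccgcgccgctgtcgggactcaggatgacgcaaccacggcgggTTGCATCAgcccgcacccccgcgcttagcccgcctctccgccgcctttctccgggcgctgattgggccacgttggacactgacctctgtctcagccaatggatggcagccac
Searched on both strands of the 250 bases, TGATGNAA was in 4 of the 14 stress list genes with a window (Asns, Chac1, Herpud1 and Vldlr), in none of 15 interferon-gamma genes, and in 3.45% of all windows.

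Chac1, which degrades glutathione, was at 13.3, 12.5, 15.9, 14.2 and 14.8 scaled FPKM at day 11 and at 39.9, 16.8, 49.1, 28.0 and 35.0 at day 15. The groups did not overlap, and the spread was far wider at day 15 (33.7 ± 12.2, n = 5) than at day 11 (14.1 ± 1.34, n = 5). The log2 difference was 1.17 (SE 0.24, limma p = 0.000408, adjusted p = 0.318) in 10 tumors and 1.15 (adjusted p = 0.173) in 9, so it did not pass the threshold. Ddit3, which encodes CHOP, was at 35.4, 43.1, 48.1, 54.8 and 46.5 at day 11 and at 88.1, 49.7, 116, 69.8 and 92.7 at day 15, where only replicate 2 lay within the day 11 range (log2 difference 0.83, adjusted p = 0.318). Trib3, a pseudokinase induced by CHOP, had 29.5 to 68.2 and 45.9 to 134 (0.83), and Sesn2, a stress-induced inhibitor of mTORC1, 8.24 to 18.1 and 15.6 to 33.2 (0.71). Day 15 replicate 2 was the lowest of its day for Chac1, Ddit3, Trib3, Sesn2 and Herpud1, and replicate 3 the highest for Chac1 and Ddit3. The summed level of the stress list was 2003, 1549, 2426, 1785 and 2006 in day 15 replicates 1 to 5, and 1474 to 1640 at day 11. Herpud1, which takes part in degrading misfolded proteins of the endoplasmic reticulum, had 30.9 to 52.0 and 52.5 to 79.5 (0.54). Atf4, the upstream factor, differed by 0.42 (limma p = 0.0602). Of the 15 stress response genes, 6 were higher and none lower at an unadjusted p under 0.05 in 10 tumors and also in 9, beside 7.7% and 9.7% of all genes higher. With FPKM as deposited 5 were higher and none lower, beside 915 of all 14445 genes higher. The median log2 difference of the list was 0.42 in 10 tumors and 0.29 in 9. Gadd45a, a growth arrest gene that is not on the list, was at 21.4 to 24.8 at day 11 and 28.8 to 48.9 at day 15 (0.76, SE 0.16, limma adjusted p = 0.318).

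**Figure D2:**
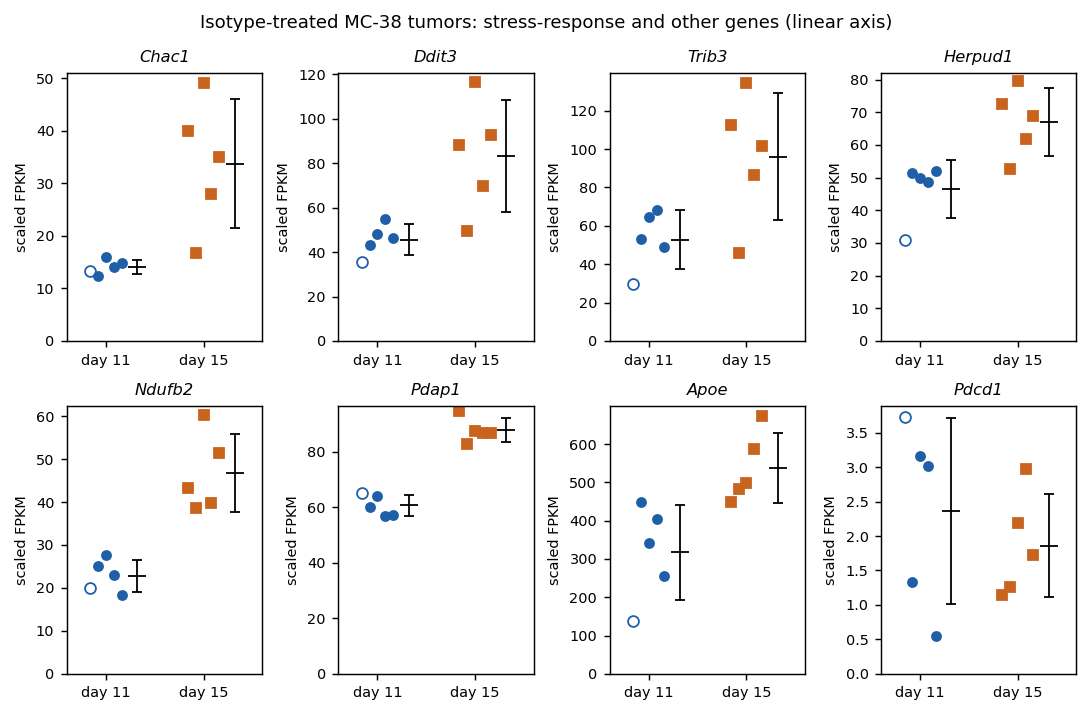
Scaled FPKM (linear axis from 0) of 8 genes in each isotype control tumor, with open circles for day 11 replicate 1, filled circles for the other day 11 tumors, squares for day 15, and a dash and bar for the mean and SD of each group of 5. Chac1 ranges from 12.5 to 15.9 at day 11 and from 16.8 to 49.1 at day 15, Ndufb2 and Pdap1 do not overlap between days, and Pdcd1 overlaps throughout.

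Pdap1 (ENSMUSG00000029623, chr5:145128769-145140238, minus strand), which encodes a protein that binds platelet-derived growth factor, was the other protein-coding gene with no shared sequence that limma called without day 11 replicate 1. It was at 65.2, 59.9, 64.1, 56.9 and 57.4 at day 11 and at 94.6, 82.8, 87.7, 86.9 and 86.7 at day 15. The groups did not overlap and were narrow, 60.7 ± 3.81 and 87.7 ± 4.28 (n = 5 each), a log2 difference of 0.53 (adjusted p = 0.318) in 10 tumors and a rise of 0.56 (SE 0.08, adjusted p = 0.0481) in 9. Pdap1 was called in 4 of 13 other settings of that comparison (limma adjusted p from 0.00535 to 0.394).

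The other 6 calls fell on sequences that resemble other genes. Rpl15-ps3, a ribosomal protein pseudogene whose 50-base words all (100%) occur in other genes, was at 47.7, 98.9, 206, 159 and 162 at day 11 and at 15.1, 24.6, 24.0, 46.6 and 43.1 at day 15, and fell by 2.42 (SE 0.32, limma adjusted p = 0.0481) in 9 tumors. Rpl9-ps6 (89.2% of words shared) was at 67.1 in day 11 replicate 1, at 10.1 to 13.8 in the other tumors of day 11 and at 27.2 to 78.6 at day 15, so that a rise of 2.01 in 9 tumors was a difference of 1.499 with adjusted p = 0.318 in 10. Ftl1-ps1 (66.2% shared) rose by 1.24 and Gm7332 (88.1% shared) by 1.91 in 9 tumors. Gm13340, a pseudogene that shares 30.0% of its words with 3 other genes, had 636 scaled FPKM in day 11 replicate 1, 3.06 to 3.68 in the other 4 and 5.37 to 7.14 at day 15. Its log2 difference was 0.90 (limma adjusted p = 0.0481) in 9 tumors and -0.60 (adjusted p = 0.796) in 10, so its direction turned with that library. Rpl36a-ps2 (100% shared) had 63.8 in day 11 replicate 1, 0 to 0.824 in the other 4 and 2.04 to 8.50 at day 15. For all of these the authors' counting could have divided reads between copies, and the values are uncertain. Rps27rt, a copy of a ribosomal protein gene with 91.1% of words shared, was lower in all 5 tumors of day 15 (64.8 to 125) than in all 5 of day 11 (160 to 385), with limma adjusted p = 0.318 in 10 tumors.

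Most nuclear genes of oxidative phosphorylation were higher on average at day 15 (19 of 22 in 10 tumors, with 3 lower). Ndufb2, a subunit of complex I, was at 19.97, 25.2, 27.7, 22.95 and 18.4 at day 11 and at 43.2, 38.7, 60.3, 39.9 and 51.4 at day 15, without overlap (log2 difference 1.02, SE 0.16, limma adjusted p = 0.155 in 10 tumors and 0.0884 in 9). Uqcr11 of complex III did not overlap either (32.4 to 41.3 and 54.0 to 102, 0.79), whereas Cox5b of complex IV (0.60) and Atp5d of the ATP synthase (0.77) did. On the list of 22 such genes 5 were higher and none lower at an unadjusted p under 0.05 in 10 tumors and 8 and none in 9, beside 7.7% and 9.7% of all genes higher. Of the 13 genes of the mitochondrial genome none passed in 10 tumors, which include the library with 54.6% mitochondrial FPKM. In 9 tumors 2 were higher and 1 lower, beside 9.7% and 7.7% of all genes.

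Transcript length moved with the day, and Ndufb2 (median transcript length 572 bases) and Uqcr11 (520) are short. Over protein-coding genes the median log2 difference was 0.27 for transcripts under 500 bases, 0.11 from 500 to under 1000, 0.03 from 1000 to under 2000, -0.11 from 2000 to under 4000 and -0.21 for 4000 and over in 10 tumors, and 0.23 to -0.26 from the shortest to the longest class in 9. The median log2 deviation from the mean of the 9 tumors of genes under 1000 bases less that of genes of 4000 bases and over was 0.70 in day 15 replicate 3, 0.31 in day 15 replicate 5 and 0.04 in day 15 replicate 1, and between -0.15 and -0.07 in the other 2. At day 11 it was between -0.27 and -0.03. After this trend was taken out of each tumor, limma called 3 genes in 10 tumors, among them Il1b (-1.62, adjusted p = 0.0423) and Rps27rt (-1.39, adjusted p = 0.0423), and 10 genes in 9, among them Ndufb2 (0.81, adjusted p = 0.0455), Il1b (-1.49, adjusted p = 0.0245) and Il1a (-1.60, adjusted p = 0.0455), while Pdap1 had an adjusted p of 0.0866. In 10 tumors the stress list then had 7 of 15 genes higher and none lower at an unadjusted p under 0.05. The oxidative phosphorylation list had 4 of 22 and none, beside 929 of all 14433 genes higher. The value of short less long transcripts was highest to lowest in day 15 replicates 3, 5, 1, 4 and 2. The sum of FPKM and the summed stress and oxidative phosphorylation lists had that same order. Its part in the list differences was not tested. Without day 15 replicate 3, 6 of 15 stress genes and 4 of 22 oxidative phosphorylation genes were higher and none lower, beside 561 of all 14439 genes higher.

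**Figure D3:**
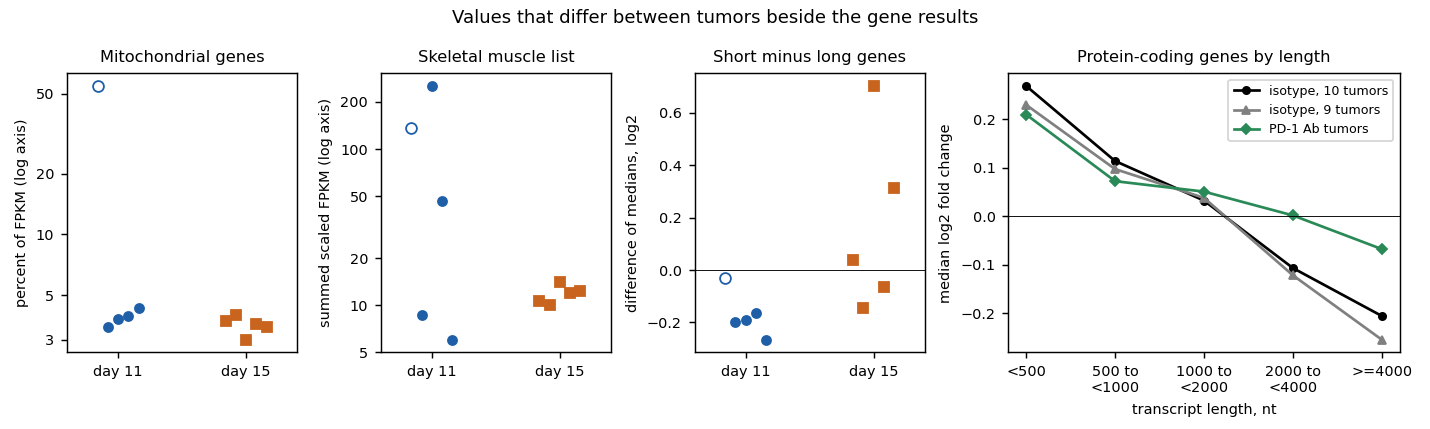
Values per tumor (open circle for day 11 replicate 1, filled circles for other day 11 tumors, squares for day 15): percent of FPKM from mitochondrial genes (log axis), summed scaled FPKM of the skeletal muscle list (log axis), median log2 deviation of short less long transcripts, and the median log2 difference of day 15 against day 11 by transcript length class for 10 isotype tumors, 9 isotype tumors and PD-1 Ab-treated tumors. Day 11 replicate 1 is at 54.6% mitochondrial FPKM, the muscle sum reaches 253 at day 11 and at most 14.2 at day 15, and the isotype medians run from above 0 for short to below 0 for long transcripts.

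Skeletal muscle genes had the lowest median of any list with at least 5 genes tested. The summed level of the 16 muscle genes was 135, 8.73, 253, 46.3 and 6.05 scaled FPKM in day 11 replicates 1 to 5, and 10.7, 10.1, 14.2, 12.1 and 12.4 in day 15 replicates 1 to 5. Tumors 1, 3 and 4 of day 11 lay above all of day 15, and tumors 2 and 5 below. Acta1, skeletal muscle actin, was at 25.7, 0.123, 69.6, 8.30 and 0.332 at day 11 and at 0.102, 0.0524, 0, 0 and 0.115 at day 15 (limma adjusted p = 0.318). Ckm, the muscle creatine kinase, was at 6.73, 0.206, 26.7, 5.03 and 0.156 and at 0.239, 0.113, 0.354, 0.143 and 0.173, so tumors 2 and 5 of day 11 were within the day 15 range. Atp2a1, the calcium pump of fast muscle, and Myh4, a fast myosin heavy chain, reached 13.99 and 16.5 at day 11 and at most 0.107 and 0.0375 at day 15. At an unadjusted p under 0.05, 10 of 14 muscle genes were lower in 10 tumors and 7 of 13 in 9, with none higher, beside 8% of all genes lower in 10 tumors and 7.7% in 9. With FPKM as deposited 9 of 13 were lower and none higher, beside 81 of all 14445 genes lower. The part of muscle genes in the other differences was not tested. Adipose tissue and Schwann cell lists had no member at an unadjusted p under 0.05 in either set. The skin keratinocyte list had 1 of 4 higher in each set, beside 7.7% and 9.7% of all genes.

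Of 18 genes of the G2/M phase of the cell cycle 4 were lower and none higher at an unadjusted p under 0.05 in 10 tumors, and 1 and none in 9, beside 8% and 7.7% of all genes lower. Without day 15 replicate 3 none of the 18 was lower or higher, beside 538 of all 14439 genes lower. After the length correction 3 were lower and none higher, beside 1096 of all 14433 genes lower. Mki67, the Ki-67 antigen, was at 43.7, 32.3, 37.7, 33.3 and 43.8 at day 11 and at 29.5, 37.1, 15.5, 32.8 and 20.8 at day 15, with overlap (log2 difference -0.55, limma adjusted p = 0.318). Its lowest values were in day 15 replicates 3 and 5, where the median of short less long transcripts was highest (0.70 and 0.31). The list's median was -0.10 and turned to 0.19 with FPKM as deposited. G1/S genes had 1 of 20 higher and 1 lower in 10 tumors, beside 7.7% and 8% of all genes. Among 26 hypoxia and glycolysis genes, Car9, the tumor carbonic anhydrase, was higher (49.2 in the tumors labelled baseline, 73.3 ± 15.2 at day 11 and 102 ± 27.8 at day 15, log2 difference 0.46) and Pdk1 lower (-0.32) at an unadjusted p under 0.05. No other gene of that list passed, beside 7.7% of all genes higher and 8% lower. Among 23 collagens and matrix proteins, Eln, elastin, was higher (0.779 to 5.31 and 4.50 to 12.98, log2 difference 1.28) and 2 were lower in 10 tumors, and 1 was higher and 5 lower in 9. Over all genes 7.7% were higher and 8% lower in 10 tumors, and 9.7% and 7.7% in 9. Mmp13, a collagenase, differed by -0.65, Has2, a hyaluronan synthase, by -0.65 without overlap, and Fap, the fibroblast activation protein, by -0.82. Hmgcs1, an enzyme of cholesterol synthesis, did not overlap between days (95.9 to 143 and 81.3 to 94.4, -0.42), and 3 of 18 genes of that pathway were lower at an unadjusted p under 0.05, beside 8% of all genes. The immediate early genes Fos (-1.47) and Egr1 (-0.83) were 2 of 13 that were lower on that measure, beside 8% of all genes. Fos overlapped through day 15 replicate 3, at 20.7. Among the largest log2 differences at the smallest p were also S100a3 (0.0391 to 0.402 and 0.982 to 1.78, 1.99), Lsm7, a component of the LSm ring that binds RNA (1.90), Hist1h2bc (1.28), Erap1, which trims peptides for MHC class I (-0.69), and Btg2, an antiproliferative gene (-0.98). None of these passed the adjusted threshold in 10 or 9 tumors.

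**Figure D4:**
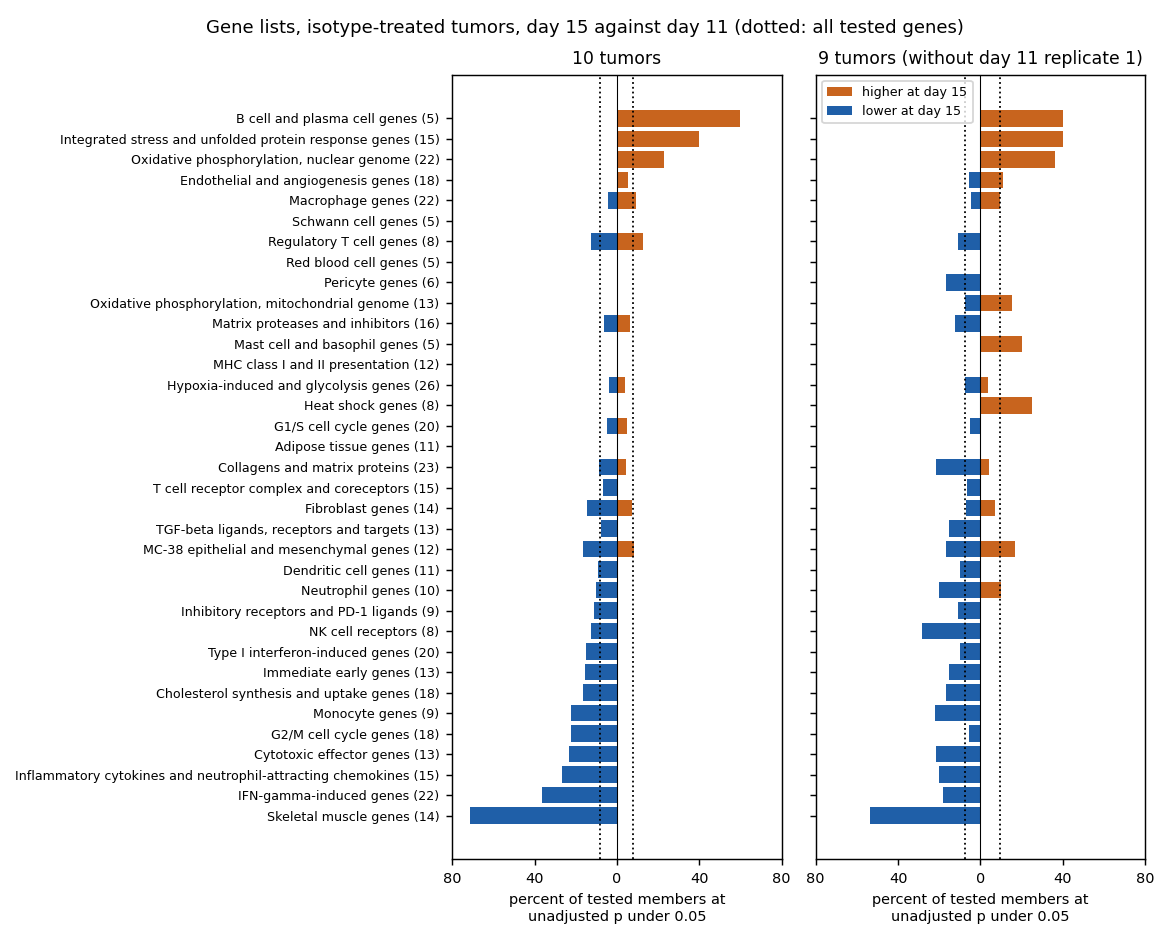
Percent of tested members of each gene list that were higher or lower at day 15 at an unadjusted limma p under 0.05, for 10 and for 9 isotype control tumors, for lists with at least 5 genes tested, with dotted lines for all genes tested. In 10 tumors the stress response list lies past the dotted line on the higher side (6 of 15) and the skeletal muscle (10 of 14) and interferon-gamma (8 of 22) lists on the lower side. Other lists do too, among them B cell (3 of 5) and nuclear oxidative phosphorylation (5 of 22) on the higher side. On the lower side these include inflammatory cytokine (4 of 15), cytotoxic (3 of 13) and G2/M (4 of 18) genes.

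The change with time was then set against that in PD-1 Ab-treated tumors of the same days. In those 10 tumors limma called 2402 of 14893 genes (16.1%) between day 15 and day 11, 1587 higher and 815 lower. The difference between the 2 changes, tested over 20 tumors, was called for 0 of 15230 genes (0%), with 1742 (11.4%) at an unadjusted p under 0.05, and over 19 tumors for 0 of 15108, with 2728 (18.1%). Without PD-1 Ab day 15 replicate 5 it was called for 475 genes. With all 20 tumors, a gene called with PD-1 Ab and not with isotype control is thus not shown to differ between the treatments. Il1b differed by -1.62 (limma adjusted p = 0.00989) with PD-1 Ab, and the 2 changes differed by 0.10 (adjusted p = 0.922). Il1a differed by -1.10 with PD-1 Ab and Ptgs2 by -0.79, both past the threshold there (limma adjusted p = 0.0424 and 0.0342). The identifiers of the PD-1 Ab-treated tumors fall, day by day, in the same runs as those of the isotype control tumors. A change seen with both treatments therefore also cannot be told apart from whatever goes with the identifiers.

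Among genes of T cells and macrophages, Pdcd1 had a log2 difference of 1.35 with PD-1 Ab (limma adjusted p = 0.0409), -0.15 with isotype control, and a difference between them of -1.50 (p = 0.0303, adjusted p = 0.386). Of 16 T cell receptor and coreceptor genes 9 were called higher with PD-1 Ab, and of 22 macrophage genes 13, beside 16.1% of all genes called in either direction. In the 10 isotype tumors no gene at all was called, and over the 20 tumors the difference between treatments was called for none of these genes. Apoe differed by 2.82 with PD-1 Ab and 0.86 with isotype control, and Trem2 by 1.83 and 0.49, and neither difference between treatments passed (limma adjusted p = 0.241 and 0.227). Acod1 differed by 0.60 with PD-1 Ab and -1.13 with isotype control (difference -1.72, adjusted p = 0.22). Cd247 (difference -1.57, limma p = 2.3e-05, adjusted p = 0.175) and Hivep3, a zinc finger protein (difference -1.03, p = 1e-05, adjusted p = 0.152), had the smallest p among the genes named. C3ar1, the receptor for complement C3a, differed by 0.97 with PD-1 Ab and by -0.37 with isotype control, and Mmp25, a membrane protease of leukocytes, by 0.77 and -1.15. For the stress gene Ddit3 the order was the other way, -0.25 with PD-1 Ab and 0.83 with isotype control (difference 1.08, limma p = 0.00128, adjusted p = 0.254), and for Chac1 0.45 and 1.17 (difference 0.72, adjusted p = 0.508). The nuclear oxidative phosphorylation gene Ndufb2 (0.67 and 1.02) and Pdap1 (0.37 and 0.53) had higher means at day 15 with both treatments.

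**Figure D5:**
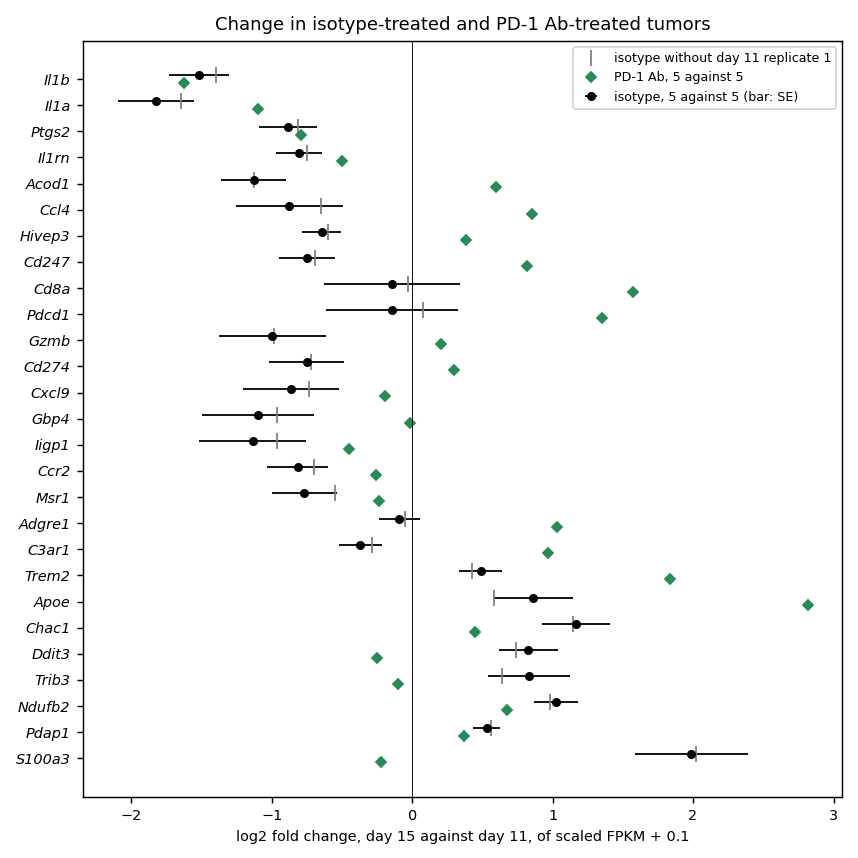
Log2 difference of day 15 against day 11 for 27 genes in isotype control tumors (points with SE for 10 tumors, ticks for 9 tumors) and in PD-1 Ab-treated tumors (diamonds). Il1b and Il1a lie below 0 with both treatments, while Pdcd1, Cd8a and Adgre1 lie near 0 with isotype control and above 1 with PD-1 Ab.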

How the data were processed

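RNA-seq was performed on whole MC-38 tumors. Total RNA was extracted with RNA STAT-60, libraries were made with a stranded, ribosomal RNA-depleted kit and read as paired 50-base ends. The authors aligned the reads to mouse build B38 with OSA in Omicsoft Array Studio and deposited FPKM for Ensembl genes. Depth is not kept in FPKM, and the tested counts of the authors (DESeq2) were not used here.

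FPKM was divided by a median-of-ratios factor per tumor, computed over 12575 genes above 0 in all 10 isotype control tumors with a mean of at least 1. To each value 0.1 was added before log2 was taken. Genes were kept where the mean scaled FPKM of either group reached 0.5, and limma 3.58.1 (R 4.3.3, lmFit, trended eBayes) was applied to them. Benjamini-Hochberg adjustment was over every gene tested, with a call made below 0.05. Only the groups compared entered each fit, and the 4 antibody groups entered the test of the difference from PD-1 Ab-treated tumors. Values per tumor were compared with 2-sided exact permutation tests over 252 or 126 splits, whose smallest possible p is 0.00794. The code was tested on simulated data.

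The genes named were the 10 highest and 10 lowest in log2 difference among called protein-coding genes with a mean of at least 1 (filled up by smallest p where fewer were called), from each list the first 3 genes and up to 4 of smallest p, Pdcd1, and up to 10 genes of smallest p for the difference between treatments. Genes called without day 11 replicate 1 that are pseudogenes are named after their values were seen. Some genes are not reported here by themselves and stay in the counts. The members and lists were chosen with earlier results of these data known. Alternatives were FPKM as deposited, upper-quartile scaling, mitochondrial genes removed, 1 added in place of 0.1, other filters, all 4 groups in 1 fit, no trend, weights per array, a replicate block, and leaving out each tumor. A length correction (lowess, span 0.3) and protein-coding genes only were added after seeing the data. Labels do not name the mouse of each tumor, and a legend of the study treats the profiles as separate animals. Gene positions are from GENCODE M21 (99.3% of identifiers matched) and promoters from RefSeq. Python 3.11.15, pandas 2.3.3, numpy 2.4.6 and scipy 1.17.1 were used.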

Additional observations from a re-analysis of the deposited data

Results flagged for a closer look

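Values of 1 tumor that lay far from the other 4 of its group were looked for in the named genes and the values per tumor. Of the 162 groups of 5 examined, 20 had 1. About 1 in 20 would be passed by independent, normally distributed values. Most values here are linear scaled FPKM of genes chosen from these data, so that rate is no chance expectation for them. Day 11 replicate 1 accounted for 12 of the 20. It was the highest of its group for Msr1 (41.9 scaled FPKM, nearest 20.3), Krt19 (2.38), Rps27rt (385), Rpl9-ps6 (67.1), Ftl1-ps1 (44.8), Gm13340 (636) and Rpl36a-ps2 (63.8), and the lowest for the stress genes Herpud1 (30.9, nearest 48.6) and Sesn2 (8.24, nearest 16.4). Its number of genes above 0 (15880), its mitochondrial share of FPKM (54.6%) and its sum of FPKM (818000) were also far from the others. The muscle gene Ckm was highest in day 11 replicate 3, at 26.7. Day 15 replicate 3 was the highest for Lsm7 (61.7), Btg2 (9.245), Fos (20.7) and Atp2a1 (0.107, where the other 4 are listed at 0). Day 15 replicate 1 was the highest for the keratin genes Krt8 (7.86, nearest 0.888), Krt18 (5.22, nearest 0.711) and Krt19 (6.98, nearest 1.85). Without it the log2 difference between days was 1.705 for Krt8 and 0.875 for Krt19, and limma called neither (adjusted p = 0.406 and 0.538). The part of these tumors' composition in the values was not tested.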

How the results depend on the processing

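In 10 tumors, against 0 genes called, limma called 6 with all 4 antibody groups in 1 fit, 266 with array weights and 3 after the length correction. Leaving out each tumor gave 0 to 9 genes, 9 without day 11 replicate 1 and 1 each without day 11 replicates 2 and 4. In 9 tumors, against 9 called, the count was 0 with FPKM as deposited, with upper-quartile scaling, without the trend, with protein-coding genes only and with the limits of the study, 4 with mitochondrial genes removed, 2 with no filter, 89 with all 4 groups in 1 fit, 178 with array weights, and 4 with the length correction and protein-coding genes only. Leaving out a further tumor gave 0 to 20 genes, 20 without day 15 replicate 3, 0 without day 15 replicates 1 or 5, 1 without day 11 replicate 4, 2 without day 11 replicate 5 or day 15 replicate 4, and 3 without day 11 replicate 3. The cause of these moves was not tested, other than that fewer genes and samples enter some of them. The difference between treatments had 0 genes under every alternative other than leaving out PD-1 Ab day 15 replicate 5, which gave 475 (range 0 to 475).

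Same-numbered tumors of the 2 days did not deviate together (correlations -0.131 to -0.000693, and none was closest to its own number), so the numbers do not pair them. With the replicate number as a block, limma called 0 genes in 10 tumors, 0 in 9 and 0 for the difference between treatments.

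With FPKM as deposited the median log2 difference of all tested genes in 10 tumors was 0.291, and 915 of 996 genes at an unadjusted p under 0.05 were higher, against 1112 of 2267 with scaling. With mitochondrial genes removed the split was 482 of 659 in 10 tumors, and in 9 it was 738 of 2595 with a median of -0.152, against 1388 of 2490. The difference in the sum of FPKM was 50187 without day 11 replicate 1 against -24130 with it. Of the 77 genes described, 73 kept their direction under all 23 alternatives. Many of these genes were chosen for a large difference or a small p in the same tumors, which the alternatives use again. The count therefore describes the processing and is no independent support for a direction. Pdcd1 was 0.13 as deposited and -0.56 to 0.0795 with a tumor left out, 0.0795, 0.02 and 0.0049 without day 11 replicates 1, 3 and 4. Cd8a was 0.13 as deposited and -0.55 to 0.12 with a tumor left out, 0.12, 0.08 and 0.03 without day 11 replicates 3 and 4 and day 15 replicate 1. Adgre1 was 0.19 as deposited. Gm13340 was 0.89 with array weights and -1.01 to 0.904 with a tumor left out, 0.904 without day 11 replicate 1.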

Other observations

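Red blood cell genes varied widely within each day. Their summed level was 26.6 to 476 scaled FPKM at day 11 (median 63.6) and 48.4 to 1119 at day 15 (median 92.1), and no member of the list passed an unadjusted p under 0.05 in limma. Endothelial genes had a median summed level of 92.1 at day 11 and 101 at day 15, and regulatory T cell genes 59.5 and 66.7. Neutrophil genes, among which Acod1 was the member lower at an unadjusted p under 0.05 in 10 tumors, had summed levels of 231 to 436 at day 11 and 285 to 333 at day 15.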
